A study of Homo sapiens with 4 samples.

Results

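The data describe 49 genes of the cell's antioxidant and detoxification machinery in MV4-11, an established human acute myeloid leukemia line of myelomonocytic type that carries a KMT2A rearrangement and an internal tandem duplication of FLT3. The genes were named by symbol. They comprise the transcription factor NRF2 (gene NFE2L2) with 3 of its regulators and partners, 10 genes widely used as NRF2 targets, and 35 general glutathione, thioredoxin and detoxification enzymes. Rows were matched through Ensembl identifiers for 48 of the 49, out of 23622 rows in the table. SOD2 (mitochondrial superoxide dismutase) was not matched and is not analysed here. The genes were selected on results of the same knockdown contrast that is described here, so their values are a description, their counts support nothing, and no test is offered on them as a group.

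RNA was sequenced from 4 bulk libraries of MV4-11. The 2 NC libraries are labelled as wild type without treatment, while the column names of the table call them sh_NC, the non-targeting hairpin control. The 2 sh-IRF1 libraries are labelled as IRF1 knockdown in the same wild-type background. In the study, hairpins were delivered by lentivirus and infected cells were selected with puromycin, and the hairpin used for these libraries was not given in the sources used here. IRF1 encodes interferon regulatory factor 1, a transcription factor that the study places in a core regulatory circuit of this leukemia, and the comparison asks what changes in the transcriptome when it is depleted. The labels do not say whether the 2 libraries of a group came from separate cultures. The spread between them may be technical, and the errors and p-values below carry the same limit. An exact two-sided permutation test of 2 against 2 libraries cannot go below p = 0.33. Differences were therefore judged by limma (moderated linear models on log2 values) fitted to all 14120 genes that reached a normalised count of 10 in 2 or more libraries, with Benjamini-Hochberg adjustment over all of them. In limma the variance of each gene is drawn towards a trend over all genes, here with a median prior of 43 degrees of freedom. The errors of fold changes and the p-values therefore reflect mostly that trend, and less the spread of a gene's own libraries. A gene passed the test at an adjusted p under 0.05. It was called when its log2 fold change was also beyond 0.5 in either direction.

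NRF2 is a basic leucine zipper factor that is held low by KEAP1, an adaptor that presents it to a cullin ubiquitin ligase. Oxidants and electrophiles modify KEAP1, NRF2 then accumulates, pairs with a small MAF protein such as MAFG and binds antioxidant response elements, whereas BACH1 occupies the same elements as a repressor. The genes it activates make glutathione and NADPH, reduce quinones, break down heme and recharge thioredoxin. Glutathione and thioredoxin are the 2 main thiol systems of the cell. Peroxidases and transferases spend glutathione, most peroxiredoxins spend thioredoxin, and each system is recharged by a reductase of its own that draws on NADPH.

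IRF1 itself (log2 fold change -0.82 ± 0.090, adjusted p 1.69e-10 by limma) had normalised counts of 785 and 738 in the NC libraries and 429.7 and 432 in the sh-IRF1 libraries. The groups did not overlap, and 56.6% of the control level remained. Depth was even, with 17635908 to 18695337 reads per library, and mitochondrial genes took 3.92 to 4.51% of reads. All 12 markers listed for MV4-11 had rows, with 35798 to 35813 reads summed over them in NC and 33069 to 34778 in sh-IRF1. Of these 12, 2 passed higher (LYZ, lysozyme, 0.85, and ITGAM, 0.64), 5 passed lower and 5 did not pass, beside 20.3% and 21.9% of all tested genes that passed higher and lower. The lower ones were MPO (myeloperoxidase, -1.42), FCGR1A (-0.57), CD86 (-0.48), FLT3 (-0.46) and CSF1R (-0.19), all as log2 fold changes. FLT3 had the largest counts of the list, 17391 and 17412 in NC and 12745 and 12634 in sh-IRF1. Of markers of other cells, T-cell genes (2 of 5 with a row) summed to 2 to 8 reads in NC and 0 to 3 in sh-IRF1, erythroid genes (1 of 5) to 27 to 28 and 11 to 12, stromal genes (2 of 4) to 28 to 29 and 42 to 53, and epithelial genes (2 of 4) to 247 to 334 and 386 to 394. B-cell genes (3 of 4, with no row for MS4A1) summed to 86 to 117 reads in NC and 255 to 325 in sh-IRF1, mostly from CD79A. The part of these marker differences in the results below was not tested. In bulk RNA a difference in the share of cells of a kind and a difference in RNA per cell cannot be told apart.

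Letters that match the antioxidant response element can be shown for several of the 49 genes. The antioxidant response element was searched on both strands in 2 spellings: the loose core TGACNNNGC, and the strict TGACTCAGC, which is 1 case of the core. Within the 300-base RefSeq windows around gene starts (250 bases before to 50 after, GRCh38.p14), 36 of the 49 genes had an entry. The core was found in 13.3% of all 35116 windows, in 3 of the 7 NRF2 targets with an entry, in 5 of the 25 general redox genes and in 1 of the 4 regulators. The strict form was found in 0.561% of all windows, in 1 of the 7 targets and in 1 of the 25 general genes. The shares over all windows count windows, whereas a listed gene counted if any of its windows matched. The 36 genes had 56 windows, so these shares and counts are unlike measures. In the 5000 bases before the GENCODE start (hg38), the strict form was present for 6.32% of 14055 tested genes, for 3 of the 10 targets, for 4 of the 33 general redox genes and for 1 of the 4 regulators. These are matches of letters and not measured binding sites. Of the strict matches found in either window, all but 2 are printed first. After them stands, for each gene that held the core alone, the match nearest to a RefSeq start. They show which letters stood before genes that rose, fell or did not pass below. Each is written 5′ to 3′ on the strand that reads TGAC, with the matched letters in capitals and the flanks in lower case.
NQO1: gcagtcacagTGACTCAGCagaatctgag
HMOX1: gaggcactggTGACTCAGCaaaatctagc
ME1: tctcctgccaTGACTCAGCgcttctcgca
ABCC1: tccttctgtgTGACTCAGCtttggagtca
MSRB1: acccaggagcTGACTCAGCgcaagaagac
PRDX2: tcacggctccTGACTCAGCttccccctaa
GPX4: agtcaccataTGACTCAGCaattccactc
GSTP1: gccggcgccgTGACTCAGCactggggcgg
GCLM: tggaagacaaTGACTAAGCagaaatcgta
TXNRD1: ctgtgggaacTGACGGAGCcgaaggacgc
KEAP1: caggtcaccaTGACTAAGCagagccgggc
EPHX1: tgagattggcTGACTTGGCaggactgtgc
GSTO1: cgagatgcttTGACACAGCcccttaagat
CBR1: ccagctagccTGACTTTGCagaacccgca
MGST1: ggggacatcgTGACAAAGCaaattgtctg

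The first 8 carry the strict form. Of these, 7 lie outside the transcribed gene, before its first base in GENCODE (hg38). The NQO1 site (chr16:69726997-69727025, minus strand) is centred 343 bases before that base, the HMOX1 site (chr22:35377146-35377174, minus strand) 3201 bases and the ME1 site (chr6:83431170-83431198, minus strand) 133 bases. Those of ABCC1 (chr16:15949069-15949097, plus strand), MSRB1 (chr16:1944380-1944408, plus strand) and PRDX2 (chr19:12804450-12804478, minus strand) lie 55, 1195 and 2664 bases before it. The GPX4 match printed (chr19:1099634-1099662, plus strand) lies 4334 bases before it. Another strict match of GPX4, nearer to the gene, and that of BACH1 are not reported here. The GSTP1 site (chr11:67583736-67583764, plus strand) lies 62 bases before the RefSeq start and inside an exon of the longer GENCODE gene, which is why it is counted in the short window only. The other 7 hold the core alone. Those of GCLM (chr1:93909446-93909474, plus strand), TXNRD1 (chr12:104215761-104215789, minus strand) and CBR1 (chr21:36069855-36069883, minus strand) lie 30, 4 and 155 bases before a RefSeq start and outside the gene. Those of KEAP1 (chr19:10502784-10502812), EPHX1 (chr1:225825266-225825294) and GSTO1 (chr10:104254721-104254749), on the plus strand, lie 27, 74 and 157 bases before a RefSeq start. GENCODE places the EPHX1 match in an intron and those of KEAP1 and GSTO1 in an exon of an earlier-starting transcript. The MGST1 match (chr12:16347135-16347163, plus strand) lies 34 bases past the RefSeq start, in an exon.

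Among the 10 NRF2 targets, 7 passed the test and rose in sh-IRF1, and 3 did not pass. Mean levels in sh-IRF1 were 426% of the control level for OSGIN1, 336% for NQO1 and 326% for HMOX1, and at the other end 111% for SLC7A11. Calls beyond the fold limit were made for 4 of the 10, all higher, beside a background of 8.27% of all tested genes called higher and 7.56% called lower. Passing higher without a fold limit was the case for 20.3% of all tested genes and passing lower for 21.9%. The fitted change was above 0 for all 10, with a median of 0.44 on the log2 scale, against -0.0019 over all 14120 genes.

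NQO1 (NAD(P)H quinone dehydrogenase 1, ENSG00000181019, chr16:69706996-69726668, hg38, minus strand) reduces quinones without leaving a reactive semiquinone and is a widely used marker of NRF2 activity. Its normalised counts were 715 and 704 in the NC libraries and 2387 and 2384 in the sh-IRF1 libraries. The libraries of each group lay close together and the groups were far apart, at a log2 fold change of 1.75 ± 0.061. A share of 19.4% of its exonic bases overlaps an antisense long non-coding gene, whose reads cannot be separated, since the strand setting of the counting was not given in the sources used here.

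OSGIN1 (oxidative stress induced growth inhibitor 1, ENSG00000140961, chr16:83931311-83966332, plus strand) encodes a growth-restraining protein named for its induction by oxidative stress. Its normalised counts were 91.3 and 93.5 in the NC libraries and 373 and 413 in the sh-IRF1 libraries. Both sh-IRF1 libraries stood well above both controls, with a log2 fold change of 2.08 ± 0.15. HMOX1 (heme oxygenase 1, ENSG00000100292, chr22:35380361-35394214, plus strand) opens heme to biliverdin, iron and carbon monoxide and is held down by BACH1. Its normalised counts were 80 and 51.4 in the NC libraries and 217 and 211 in the sh-IRF1 libraries. The controls were more uneven here than the sh-IRF1 libraries, NC replicate 1 being the higher, and the groups did not overlap. The log2 fold change was 1.72 ± 0.20 and lay between 1.41 and 2.04 when 1 library was left out.

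NMRAL2P (ENSG00000171658, chr3:185960039-185979837, plus strand) is a transcribed relative of the redox sensor gene NMRAL1 and has been described as an NRF2-driven non-coding RNA. It was read 3 and 0 times in the NC libraries and 54 and 38 times in the sh-IRF1 libraries. It was near the detection floor in NC and passed the filter only through the sh-IRF1 libraries, so it had to differ. The ratio of summed reads, corrected by the size factors, was 28.8, with an exact 95% interval of 9.56 to 142 that covers counting error only. The fitted log2 change of 4.47 depends on the added count of 1 and is no bound. Without NC replicate 2 it was 3.46, and without NC replicate 1 it was 5.48. A second gene model of the same name covers all of its exons. The parent gene NMRAL1 had normalised counts of 1017 and 962 in the NC libraries and 1076 and 981 in the sh-IRF1 libraries and the groups overlapped.

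The glutamate-cysteine ligase carries out the first and limiting step of glutathione synthesis. GCLM, its modifier subunit (ENSG00000023909, chr1:93885199-93909456, minus strand), had normalised counts of 1342 and 1378 in the NC libraries and 1824 and 1859 in the sh-IRF1 libraries. Both knockdown libraries exceeded both controls by more than the spread within groups, at a log2 fold change of 0.44 ± 0.056. GCLC, the catalytic subunit, had 267 and 258 in the NC libraries and 316 and 309 in the sh-IRF1 libraries. Its groups did not overlap either, but the change of 0.25 ± 0.13 did not pass the test (adjusted p 0.103). SLC7A11, the cystine transporter subunit xCT that supplies cysteine, had 1821 and 1814 in the NC libraries and 2071 and 1976 in the sh-IRF1 libraries. It passed with the smallest change among the targets that did, 0.15 ± 0.052, and no longer passed without sh-IRF1 replicate 1 (0.12).

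TXNRD1, the cytosolic thioredoxin reductase, is a selenoprotein that recharges thioredoxin from NADPH. Its normalised counts were 4086 and 4348 in the NC libraries and 5529 and 5495 in the sh-IRF1 libraries. The sh-IRF1 libraries were nearly equal and both above the controls, at a log2 fold change of 0.39 ± 0.038. SRXN1, the sulfiredoxin that restores overoxidised peroxiredoxins, was low at 31.8 and 28.8 in the NC libraries and 46.8 and 36.5 in the sh-IRF1 libraries. With a log2 fold change of 0.44 ± 0.35 it did not pass (adjusted p 0.327), and a readthrough gene covers 90.7% of its exons. ME1, the cytosolic malic enzyme that yields NADPH, had 53.3 and 48.3 in the NC libraries and 63.7 and 65.6 in the sh-IRF1 libraries. Its sh-IRF1 values were both the higher, but the change of 0.34 ± 0.27 did not pass either (adjusted p 0.333).

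**Figure D1:**
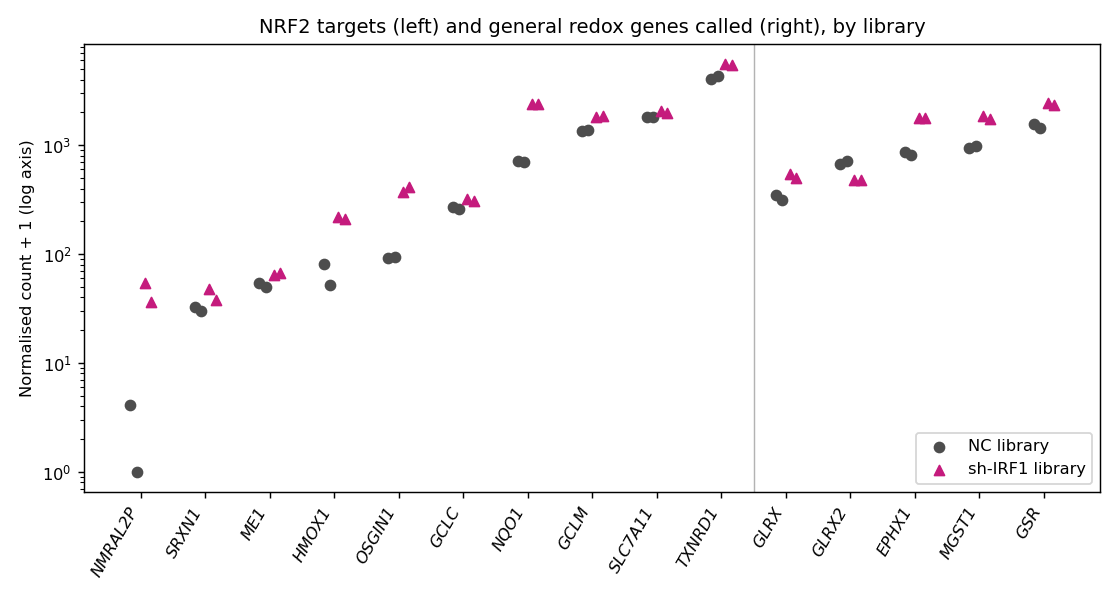
Normalised count plus 1 (log axis) of the 10 NRF2 targets and of the 5 general redox genes called, in each of the 4 libraries; circles are the 2 NC libraries and triangles the 2 sh-IRF1 libraries. NQO1, OSGIN1 and HMOX1 are separated by more than 1 log2 unit, TXNRD1, GCLM and SLC7A11 by less, and GLRX2 is the only gene shown whose sh-IRF1 values lie below NC.

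The 4 regulators all passed the test, and none reached the fold limit. Over all tested genes 20.3% passed higher and 21.9% lower. NFE2L2 (NRF2, ENSG00000116044, chr2:177218667-177392756, minus strand) had normalised counts of 1983 and 2011 in the NC libraries and 2187 and 2230 in the sh-IRF1 libraries. The groups did not overlap and differed by 0.15 ± 0.050 on the log2 scale (adjusted p 0.0158). The gene shares 38.4% of its exonic bases with HNRNPA3 on the opposite strand, a splicing factor gene that is far more abundant and moved the other way, at 8103 and 7970.4 in NC and 7056 and 7016 in sh-IRF1. KEAP1 (ENSG00000079999, chr19:10486125-10503558, minus strand) had 3409 and 3468 in the NC libraries and 3195 and 3149 in the sh-IRF1 libraries. It fell to 92.3% of the control level, with a log2 fold change of -0.12 ± 0.042 (adjusted p 0.0222).

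BACH1, the repressor at the same elements, had 923 and 1066 in the NC libraries and 1145 and 1136 in the sh-IRF1 libraries. NC replicate 1 was lower than the other 3 libraries, and the log2 fold change was 0.20 ± 0.070 (adjusted p 0.0181). MAFG, the small MAF partner (ENSG00000197063, chr17:81918270-81927735, minus strand), had 3437 and 3352 in the NC libraries and 4612 and 4421 in the sh-IRF1 libraries. It showed the largest change of the 4, 0.41 ± 0.040, well beyond the spread within groups. The changes of NFE2L2, KEAP1 and BACH1 stopped passing in some alternatives: NFE2L2 without NC replicate 1 (0.14), sh-IRF1 replicate 1 (0.16) or sh-IRF1 replicate 2 (0.13), KEAP1 without NC replicate 2 (-0.10), sh-IRF1 replicate 1 (-0.13) or sh-IRF1 replicate 2 (-0.11), and BACH1 without NC replicate 1 (0.097), sh-IRF1 replicate 1 (0.20) or sh-IRF1 replicate 2 (0.21). BACH1 still passed without NC replicate 2, at 0.30. KEAP1 also stopped passing when libraries were scaled by total reads (-0.072), and BACH1 with DESeq2 (0.20). MAFG passed in all 15 alternatives. NRF2 is controlled mainly through the stability of its protein, which these libraries do not measure.

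Of the 33 general redox genes tested, 15 passed and rose, 4 passed and fell and 14 did not pass. The median change was 0.13 on the log2 scale. Calls were made for 4 higher and 1 lower, with the same background of 8.27% and 7.56% as above. For the test alone the background was 20.3% passed higher and 21.9% passed lower. BLVRA (biliverdin reductase A) had a row but was read at most 5 times in any library and was not tested. Some of these enzymes are also reported as NRF2 targets. With 10 such genes (TXN, PRDX1, GSR, ABCC1, EPHX1, CBR1, BLVRB, MGST1, GSTP1 and CAT) moved over, the wider target list of 20 had 7 called higher, 13 passed higher, 2 passed lower and a median of 0.41. The remaining 23 general genes then had 1 called higher and 1 lower, 9 passed higher and 2 passed lower, with a median of 0.011.

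**Figure D2:**
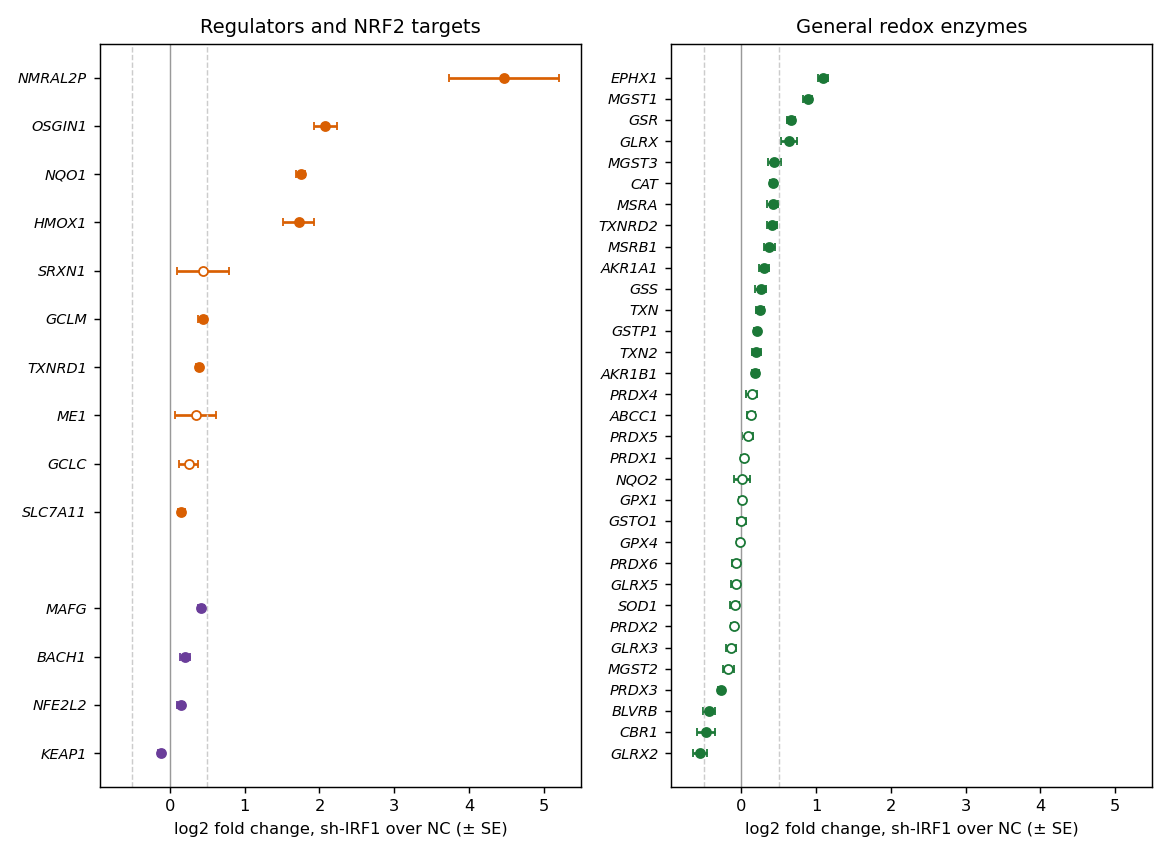
Fitted log2 fold change (sh-IRF1 over NC, horizontal axis) with its standard error for the 47 tested genes, regulators and NRF2 targets on the left and general redox enzymes on the right; filled points passed the test at an adjusted p under 0.05 and dashed lines mark ±0.5. All 10 targets lie above 0, whereas the 33 general enzymes run from -0.56 (GLRX2) to 1.09 (EPHX1), with 21 above 0 and 12 below.

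Of the 8 genes grouped here with quinone, carbonyl and epoxide enzymes, 6 passed and rose, 1 fell and 1 did not pass. Over all tested genes 20.3% passed higher and 21.9% lower. The 6 include NQO1, OSGIN1, a growth-restraining protein, and NMRAL2P, a non-coding RNA that had to differ. EPHX1, microsomal epoxide hydrolase (ENSG00000143819, chr1:225810124-225845563, plus strand), had normalised counts of 869.9 and 809 in the NC libraries and 1782 and 1790.5 in the sh-IRF1 libraries. Both sh-IRF1 libraries were about 2-fold above both NC libraries, with little spread, 1.09 ± 0.064 on the log2 scale, the largest change among the general enzymes. The aldo-keto reductases AKR1A1 and AKR1B1 passed with 0.31 and 0.19, AKR1B1 no longer without NC replicate 1 (0.13) or sh-IRF1 replicate 2 (0.18). CBR1, a carbonyl reductase, fell, with 385 and 384 in NC and 301 and 256 in sh-IRF1 and a log2 fold change of -0.47 ± 0.12, which did not pass without sh-IRF1 replicate 2 (-0.35) and went past the fold limit without sh-IRF1 replicate 1 (-0.59). An antisense gene covers 18.9% of CBR1's exons. NQO2, the paralogue of NQO1 that uses dihydronicotinamide riboside, had 438 and 408 in NC and 405 and 448 in sh-IRF1. Those groups overlapped, with a change of 0.011 ± 0.11. Per kilobase of exon, the ratio of NQO1 to NQO2 was 1.37 ± 0.0538 in NC and 4.58 ± 0.332 in sh-IRF1 (mean ± SD, n = 2 libraries each).

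The 2 tested genes of heme breakdown moved in opposite directions, and BLVRA, read at most 5 times in any library, was not tested. HMOX1 rose as given above, while BLVRB, the biliverdin reductase isoform that also acts as a flavin reductase, fell with 849 and 864 in NC and 622 and 651 in sh-IRF1 and a log2 fold change of -0.43 ± 0.080. The ratio of HMOX1 to BLVRB per kilobase was 0.0537 ± 0.0172 in NC and 0.235 ± 0.0124 in sh-IRF1. BLVRB remained the more abundant transcript per kilobase in all 4 libraries.

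Genes that supply or export glutathione were all fitted above 0, as were 7032 of all 14120 tested genes. Of the 7, 4 passed higher, beside 20.3% of all tested genes. GSR, glutathione reductase (ENSG00000104687), which regenerates reduced glutathione from the disulfide, had normalised counts of 1561 and 1442 in the NC libraries and 2432 and 2327 in the sh-IRF1 libraries. The groups lay well apart, at a log2 fold change of 0.66 ± 0.054. GSS, glutathione synthetase, passed with 0.26 ± 0.079, but not without sh-IRF1 replicate 1 (0.21). ABCC1, the export pump for glutathione conjugates, had a change of 0.13 ± 0.057 that did not pass (adjusted p 0.0641), but did with total reads scaling (0.17) and with edgeR (0.14). The ratio of GSR to GSS per kilobase was 3.66 ± 0.213 in NC and 4.86 ± 0.0859 in sh-IRF1 (mean ± SD, n = 2), without overlap between the groups. The ratio of GCLC to GCLM was 0.121 ± 0.00523 in NC and 0.107 ± 0.00314 in sh-IRF1.

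Of the 7 genes that spend glutathione, 3 passed and rose and 4 did not pass, beside 20.3% of all tested genes that passed higher. MGST1, a microsomal glutathione transferase with peroxidase activity (ENSG00000008394, chr12:16347142-16609259, plus strand), had normalised counts of 949.9 and 988 in the NC libraries and 1848 and 1734 in the sh-IRF1 libraries. Both sh-IRF1 values were nearly 2-fold the controls, at a log2 fold change of 0.89 ± 0.062. MGST3, of the same family, passed with 0.44 ± 0.088, while MGST2 had a change of -0.17 ± 0.077 that did not pass. Both leaned on the NC libraries. Without NC replicate 1, MGST3 was at 0.60, past the fold limit, and MGST2 passed lower at -0.26, and without NC replicate 2 they were at 0.28 and -0.086. GSTP1, a soluble transferase, passed with 0.21 ± 0.037, and GSTO1 was fitted at -0.00079 ± 0.063. The peroxidases were the 2 most abundant tested genes of the set per kilobase. GPX1, cytosolic glutathione peroxidase, had 13274 and 12428 in NC and 12983 and 12776 in sh-IRF1, and GPX4, which reduces lipid hydroperoxides in membranes and so guards against ferroptosis, had 6943 and 6729 in NC and 6686 and 6809.9 in sh-IRF1. Both showed overlapping groups, with changes of 0.0039 ± 0.030 and -0.018 ± 0.034. GPX1 shares 39.9% of its exonic bases with another protein-coding gene on the same strand.

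The glutaredoxins use glutathione to reduce mixed disulfides or to carry iron-sulfur clusters. Of the 4, 1 passed higher and 1 lower, beside 20.3% and 21.9% of all tested genes. GLRX, the cytosolic enzyme (ENSG00000173221, chr5:95751319-95822726, minus strand), had normalised counts of 347 and 315 in the NC libraries and 539 and 494 in the sh-IRF1 libraries. It rose by 0.64 ± 0.11 on the log2 scale. GLRX2, the mitochondrial enzyme (ENSG00000023572, chr1:193090866-193106114, minus strand), had 675 and 722 in the NC libraries and 474 and 475 in the sh-IRF1 libraries. It was the only general enzyme called lower, at -0.56 ± 0.090, and the ratio of GLRX to GLRX2 per kilobase was 0.474 ± 0.0543 in NC and 1.08 ± 0.0683 in sh-IRF1. Which of the 2 was the more abundant per kilobase thus differed between the groups in all 4 libraries. GLRX3, a monothiol form of the cytosol, had 1246 and 1167 in NC and 1097 and 1097 in sh-IRF1. GLRX5, a monothiol form of the mitochondrion, had 1296 and 1232 in NC and 1212 and 1192 in sh-IRF1. Their changes of -0.14 ± 0.065 and -0.071 ± 0.063 did not pass, although the groups did not overlap.

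In the thioredoxin system 6 of the 7 genes passed and rose, none beyond the fold limit, and SRXN1 did not pass. The share that passed higher over all tested genes was 20.3%. TXN, cytosolic thioredoxin, had 1815 and 1664 in NC and 2105 and 2041 in sh-IRF1, and TXN2, its mitochondrial counterpart, 1448 and 1600.2 in NC and 1839 and 1666 in sh-IRF1. All sh-IRF1 values lay above all NC values for both genes, with log2 fold changes of 0.25 ± 0.054 and 0.20 ± 0.059. TXN2 did not pass without NC replicate 1 (0.13) or sh-IRF1 replicate 1 (0.13). TXNRD2, the mitochondrial reductase, had 1004 and 971 in NC and 1293 and 1330.5 in sh-IRF1, a change of 0.41 ± 0.065 beside 0.39 ± 0.038 for TXNRD1. The ratio of TXNRD1 to TXNRD2 per kilobase was 5.22 ± 0.355 in NC and 5.14 ± 0.125 in sh-IRF1, and that of TXN to TXN2 was 1.87 ± 0.246 in NC and 1.94 ± 0.0931 in sh-IRF1. Both ratios overlapped between the groups, so a shift between the cytosolic and the mitochondrial form was not seen at this depth. The methionine sulfoxide reductases MSRA and MSRB1, which take electrons from thioredoxin to repair oxidised methionine, passed with 0.42 ± 0.076 and 0.37 ± 0.072.

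Of the 6 peroxiredoxins, which remove peroxides and most of which spend thioredoxin, 1 passed lower and 5 did not pass. Passing lower was the case for 21.9% of all tested genes. PRDX3, the mitochondrial peroxiredoxin, passed and fell, with 7161 and 7105 in NC and 5806 and 5970.4 in sh-IRF1 and a log2 fold change of -0.28 ± 0.034. Its groups were far apart beside the spread within them, while the other 5 lay between -0.10 (PRDX2) and 0.14 (PRDX4) and did not pass. PRDX4 passed higher with total reads scaling (0.18) and without NC replicate 1 (0.22). CAT, catalase, which destroys hydrogen peroxide in peroxisomes, rose, with 4230.4 and 4107 in NC and 5697 and 5516 in sh-IRF1 and a log2 fold change of 0.43 ± 0.037. SOD1, the cytosolic superoxide dismutase, had 1529.5 and 1472 in NC and 1440.3 and 1381 in sh-IRF1, a change of -0.089 ± 0.059 that did not pass.

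Sums were taken per kilobase of exon and scaled to total reads. The 8 genes grouped with quinone and carbonyl enzymes came to 94.5 ± 0.292 in NC and 163 ± 0.249 in sh-IRF1 (mean ± SD, n = 2). The glutathione supply genes summed to 65.2 ± 1.43 in NC and 90.1 ± 1.42 in sh-IRF1 and the thioredoxin system to 222 ± 4.14 in NC and 279.8 ± 6.06 in sh-IRF1. In each of these 3 sums both sh-IRF1 libraries lay above both NC libraries, by more than the spread within groups. Within the first sum, NQO1 went from 13.2 to 45.7 and EPHX1 from 18.7 to 41.1, while CBR1 fell from 8.66 to 6.47. SOD1 and CAT summed to 106 ± 2.64 in NC and 130 ± 2.79 in sh-IRF1. The heme genes fell, from 31 ± 0.183 in NC to 27.8 ± 0.833 in sh-IRF1, without overlap between the groups. The sum of the peroxiredoxins was 437 ± 6.46 in NC and 430.2 ± 0.847 in sh-IRF1, with both sh-IRF1 libraries below both NC libraries. That of the glutaredoxins was 51.2 ± 1.63 in NC and 49.8 ± 0.464 in sh-IRF1, with overlap. That of the glutathione-spending genes was 919.8 ± 34 in NC and 977 ± 4.71 in sh-IRF1, without overlap and most of it GPX1. Exon lengths were taken over all annotated exons, so a gene with long untranslated ends is understated on this scale.

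Levels in NC on that scale spanned from 0.0955 ± 0.135 for NMRAL2P to 496 ± 23.8 for GPX1. GPX4 at 205 ± 4.85, GSTP1 at 153 ± 5.89 and PRDX3 at 117 ± 0.832 followed GPX1, and neighbours in this order of 4 differed by more than 1 SD of either. Of the 4 called targets, OSGIN1 at 0.918 ± 0.0138 and HMOX1 at 1.57 ± 0.488 were among the lowest in NC, and NQO1 stood at 13.2 ± 0.17. In sh-IRF1, NQO1 reached 45.7 ± 0.111, close to TXNRD1 at 46.8 ± 0.0353, whereas in NC TXNRD1, at 34.7 ± 1.47, had been well above it. KEAP1 at 53.1 ± 0.561 and MAFG at 35.8 ± 0.695 were higher in NC than NFE2L2 at 7.36 ± 0.0623 and BACH1 at 7.16 ± 0.717. NFE2L2 and BACH1 did not differ beyond their spread. The gap between NFE2L2 and KEAP1 leans on annotated exon length, 14975 bases for NFE2L2 and 3573 for KEAP1. Their mean normalised counts in NC were 1997 and 3438. Of the NFE2L2 exonic bases, 38.4% are shared with HNRNPA3, and of those of GPX1, 39.9% with another protein-coding gene.

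**Figure D3:**
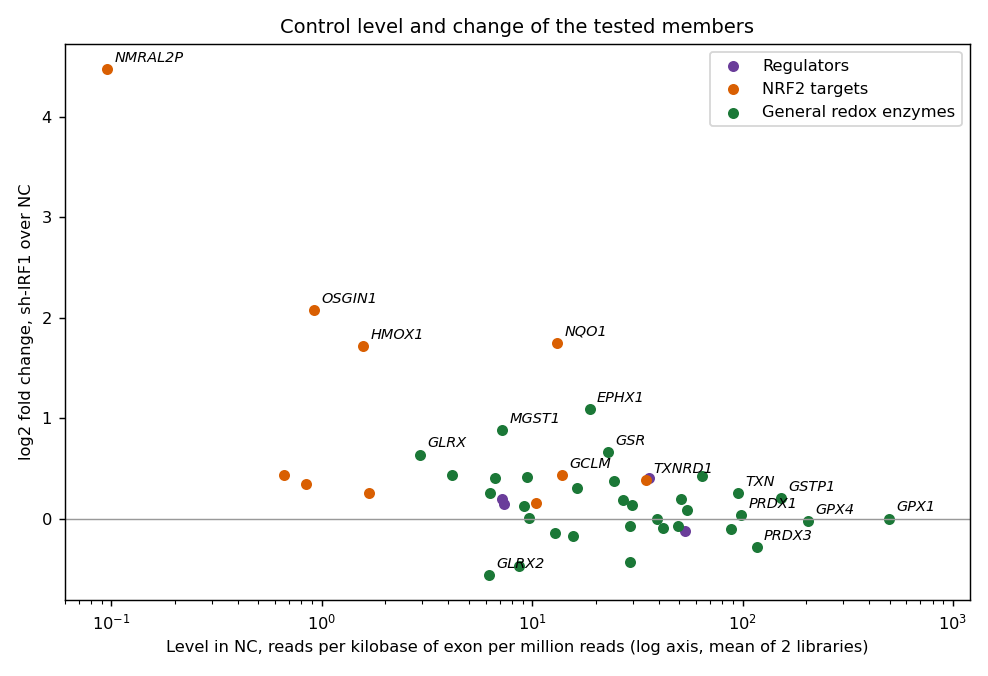
Level in NC (reads per kilobase of exon, scaled to total reads, mean of 2 libraries, log axis) against log2 fold change for the 47 tested genes, coloured by kind. The 4 genes at or above 1.72 are all NRF2 targets, 3 of them at or below a level of 1.57. NMRAL2P is among them and had to differ, since it passed the filter only through the sh-IRF1 libraries. The NC level enters both axes, and the genes were selected on this contrast. The 4 most abundant genes (GPX1, GPX4, GSTP1, PRDX3) lie between -0.28 and 0.21.

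Genes of the pathway outside the 49 were taken from lists written from general knowledge, also with results of these data known. Of 36 other NRF2 targets, 26 had a row and 19 were tested. In that list 14 passed higher, 1 passed lower and 4 did not pass, and 11 were called higher and 1 lower, with a median of 0.56, beside 8.27% and 7.56% of all tested genes called higher and lower and 20.3% and 21.9% that passed. The 3 smallest p-values belonged to FTH1, CES1 and TRIM16L. FTH1, the ferritin heavy chain that oxidises and stores iron, had 8637 and 8473 in NC and 16400 and 16121 in sh-IRF1 and a change of 0.93 ± 0.029. It shares 63.2% of its exonic bases with BEST1 on the other strand, which had only 94.4 and 79.1 in NC and 95.5 and 106 in sh-IRF1. CES1, a carboxylesterase that hydrolyses esters and drugs, had 1049 and 961 in NC and 3399 and 2892 in sh-IRF1, with sh-IRF1 replicate 1 above replicate 2 and both far above NC (1.64 ± 0.060). TRIM16L, a relative of the stress-response gene TRIM16, had 346 and 343 in NC and 1259 and 1235 in sh-IRF1 and a change of 1.85 ± 0.084. A second model of the same name covers its exons. The gene called lower was AKR1C3, an aldo-keto reductase acting on steroids and prostaglandins, with 65.7 and 79.1 in NC and 32.8 and 38.4 in sh-IRF1, or 49.2% of the control level. Its relatives AKR1C1 and AKR1C2 were called higher, and the assignment of reads among the 3 was not tested. When 1 library was left out, AKR1C3 was no longer called without NC replicate 2 or sh-IRF1 replicate 1. AKR1C2 was lost without any of the libraries but NC replicate 2.

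Of 15 other partners and regulators of NRF2, 14 were tested. There 5 passed higher, 3 passed lower and 6 did not pass, with a median of -0.033, beside 20.3% and 21.9% over all tested genes, and 1 was called higher, beside 8.27%. That gene was SQSTM1, the autophagy receptor p62 that binds KEAP1 and is itself an NRF2 target, with 2139.8 and 2005 in NC and 4105 and 3963 in sh-IRF1 and a change of 0.96 ± 0.045 (adjusted p 8.7e-23 by limma). Its 2 groups were nearly 2-fold apart. A share of 22.4% of its exons overlaps MRNIP on the other strand. Without sh-IRF1 replicate 1 the count rose to 2, with BTRC, an adaptor for NRF2 degradation.

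Of 40 other redox genes, 35 had a row and 33 were tested. Here 8 passed higher and 8 lower, 17 did not pass, and 3 were called higher and 4 lower, with a median of 0.040. These shares, 24.2% passed in either direction, are near the 20.3% and 21.9% over all tested genes, and the calls are near 8.27% and 7.56%. GGT5, a gamma-glutamyl transferase that acts on glutathione conjugates such as leukotriene C4, had 228 and 197 in NC and 633 and 658 in sh-IRF1 (1.60 ± 0.11). SESN3, a sestrin, had 126 and 112 in NC and 237 and 213 in sh-IRF1 (0.91 ± 0.17), and GGT7 had 268 and 227 in NC and 345 and 362 in sh-IRF1 (0.52 ± 0.13). These 3 had groups well apart at moderate counts. Lower were SESN2, a sestrin induced by amino acid and oxidative stress, with 1870 and 1744 in NC and 1085 and 1146 in sh-IRF1 (-0.69 ± 0.060), and CHAC1, which degrades glutathione, with 811 and 837 in NC and 551 and 596 in sh-IRF1 (-0.52 ± 0.083). CBR4, a mitochondrial carbonyl reductase, had 406 and 446 in NC and 326 and 264 in sh-IRF1 (-0.53 ± 0.12). The fourth call, MSRB3, rested on few reads, 17 and 20 in NC and 10 and 2 in sh-IRF1. With normalised counts of 9.95 and 1.87 in sh-IRF1, MSRB3 passed the filter only through the NC libraries. Its sh-IRF1 values therefore had to be the lower. Without NC replicate 2, and likewise without sh-IRF1 replicate 2, 4 of the 7 calls remained in number, those of GGT7, CBR4 and MSRB3 being lost. CHAC1 was not called without sh-IRF1 replicate 1, nor CHAC1 and CBR4 with total reads scaling.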

How the data were processed

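Total RNA of MV4-11 was sequenced in 2 NC and 2 sh-IRF1 libraries. The authors deposited 1 table of 23622 Ensembl genes for 4 libraries. Per the submitters' processing notes reads were aligned to hg38 with HISAT2 2.0.5; the counter, annotation and strand setting were not given in the sources used here. The deposited signal values are read counts divided by a size factor per library: all values were whole multiples (within 0.01 reads) of the worth of 1 read in their library, so reads were recovered. Such scaling takes most genes as unchanged. Columns were matched to samples by name. Symbols, exon lengths and overlaps came from GENCODE 44 (23456 rows matched).

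The main test was limma 3.58.1 (R 4.3.3; trend and robust) on log2(value + 1), keeping genes that reached 10 in 2 or more libraries, with Benjamini-Hochberg adjustment; fold changes on this scale understate those of low genes. The study used DESeq2; DESeq2 1.42.0 and edgeR 4.0.16 on recovered reads, other scalings, pseudocounts and filters, the replicate number as a block and leaving out each library were alternatives. Scripts were tested on simulated data. Depth was 17635908 to 18695337 reads, and replicate pairs differed by more than sampling noise.

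The members and all lists were chosen with earlier results of these data known. Values per library are given for regulators, NRF2 targets, called general genes, the 2 most abundant others, and cytosolic and mitochondrial pairs; other lists are represented by the 3 smallest p-values in each direction among calls. Others named (PRDX3, BLVRB, CBR1, CAT, NQO2 and those given by fold change alone, the MV4-11 markers and BTRC) were chosen after their values were seen, as was the 5000-base motif window. Promoter windows are from RefSeq; 2 of the strict matches are not reported here; protein sequences were not used here.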

Additional observations from a re-analysis of the deposited data

How the results depend on the processing

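All genes called numbered 2235 (1168 higher, 1067 lower), 5953 with no minimum fold change and 707 beyond a log2 change of 1; the other alternatives kept it within 1.5 times. The 4 target calls became 7 and the 5 general calls 2 with the wider target list. The general median of 0.13 became 0.17 with total reads scaling, which moved the median of all genes to 0.043, and 0.011 with the wider list. Leaving out each library in turn gave 4 to 7 other redox calls, 1 to 2 partner calls, a target median of 0.42 to 0.52 and a general median of 0.080 to 0.13. Without NMRAL2P, an alternative chosen after seeing the data, 3 targets were called and their median was 0.44.

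Signs turned only for genes that did not pass: GPX4 (0.026) and GSTO1 (0.044) with total reads scaling, GSTO1 (0.0050) with edgeR, and, leaving out libraries, NQO2 (-0.062 to 0.084), PRDX1 (-0.011 to 0.080), PRDX5 (-0.028 to 0.20), GPX1 (-0.044 to 0.051), GPX4 (-0.041 to 0.0041) and GSTO1 (-0.0087 to 0.0071). Over 703 pairs of gene and alternative, 667 kept direction and side of the threshold, 18 stopped passing, 6 began to pass and 12 turned sign; the cause was not tested.

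Replicate numbers did not pair the libraries by label, and deviations of same-numbered libraries correlated at -0.0154 across 14120 genes. With the replicate block 2240 genes were called (1174 higher, 1066 lower), and the 4 target and 5 general calls kept their number. PRDX2 passed lower under the block alone (-0.098, adjusted p 0.0498 by limma). The changes of SRXN1 (0.44 ± 0.35) and ME1 (0.34 ± 0.27) were not resolved beyond their errors.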
